A study of Homo sapiens with 6 samples.

Results

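The genes analysed here are 52 genes of DNA replication and of the entry into S phase, taken by name from a list that covers origin licensing, the replicative helicase, the DNA polymerases, the sliding clamp and its loader, nucleotide supply, cyclin E and E2F factors, and chromatin assembly factor 1. All 52 were found, each on exactly 1 row of the deposited table, among 21957 genes that had a row of their own. Gene expression was measured with Affymetrix arrays in the MM INA-6 cell line, an established human myeloma line that depends on interleukin-6 (IL-6), so every array describes 1 line grown with IL-6. In 3 cultures the cells had received 1 μM UNC1999, an inhibitor of the H3K27 methyltransferase EZH2, and in the other 3 they had received 1 μM UNC2400, its inactive form. Both treatments lasted 120 hours, with medium and compound renewed at 72 hours, after seeding at 100000 cells per mL. The control is UNC2400 according to the labels and DMSO according to the text of the study, and the labels were followed here. Replicates are labelled as biological without a day or batch, so the p-values measure the spread between these cultures only.

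Eukaryotic replication starts at origins that are licensed in G1, when the origin recognition complex, CDC6 and CDT1 load the MCM2 to MCM7 ring onto DNA. At the onset of S phase, CDC45 and the GINS complex join the ring to form the active helicase, and the polymerases, the PCNA clamp and the nucleases and ligases of the lagging strand follow. Many of these genes are transcribed late in G1 by E2F factors, which are released from the retinoblastoma protein when cyclin D and cyclin E kinases phosphorylate it. MM cells are the malignant counterpart of plasma cells, which normally no longer divide, and the genes of this program are commonly followed as a sign of proliferation. The arrays measure RNA of whole cultures, so a larger share of cells in S phase and more RNA per cell cannot be told apart.

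Because E2F binding is the element best known to be shared by these promoters, the E2F-type sequences of the members that passed the test are shown first, with those of 5 members that did not. The sequences come from RefSeq (GRCh38.p14), which held a window of 250 bases before to 50 bases after the gene start for 45 of the 52 genes. MCM4, MCM5, GINS4, POLD3, RPA2, RPA3 and CCNE2 had no window there. The search took 4 sequences, TTTGGCGC, TTTCCCGC, TTTGCCGC and TTTCGCGC, on either strand. Each line below gives 28 bases 5′ to 3′ on the strand of the gene, with the matched 8 bases in capitals and 10 bases on either side in lower case.
GMNN (higher, chr6:24775323-24775350, plus strand): ctgggtcggtTTTGGCGCgctctcactt
LIG1 (higher, chr19:48170441-48170468, minus strand): cttcacccctTTTCCCGCcctcctccca
MCM7 (higher, distal match, chr7:100101567-100101594, minus strand): agctcggaccGCGGGAAAcccggcgcct
MCM7 (higher, match at the start, chr7:100101389-100101416, minus strand): gggggcgacgTTTCGCGCcaatttcggt
POLE (higher, chr12:132687343-132687370, minus strand): gggtgggagcGCGCCAAAtttctcccct
TYMS (higher, chr18:657604-657631, plus strand): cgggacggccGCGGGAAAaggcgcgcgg
ORC3 (lower, chr6:87590113-87590140, plus strand): gcgagggcgcGCGGGAAAtcccgagtgc
MCM6 (not passed, distal match, chr2:135876578-135876605, minus strand): gggctttgcaTTTGGCGCgaaatccctt
MCM6 (not passed, second match, chr2:135876516-135876543, minus strand): attggtcaggTTTGGCGCgaaatctcca
MCM2 (not passed, chr3:127598403-127598430, plus strand): gtgaaccactTTTCGCGCgaaacctggt
CDC6 (not passed, chr17:40287876-40287903, plus strand): gccattcggaTTTGGCGCgagcgcggct
PCNA (not passed, chr20:5126664-5126691, minus strand): agcgtcagggGCGGGAAAaggcgtgcgt
E2F1 (not passed, chr20:33686388-33686415, minus strand): gcaaaaaggaTTTGGCGCgtaaaagtgg

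The same 8 bases stood beside members that rose, fell and did not pass. TTTGGCGC was present in GMNN, which rose, and in MCM6, CDC6 and E2F1, which did not pass, and GCGGGAAA, the reverse complement of TTTCCCGC, was present in TYMS, which rose, and in ORC3, which fell. Of the 45 members with a window, 22 (48.9%) held at least 1 match, against 1090 of 27305 genes (3.99%) in the whole promoter table. The share was 5 of 9 among members that rose (55.6%), 1 of 2 among those that fell, and 16 of 34 among those that did not pass (47.1%). Of the 29 matches, 24 began before the gene start. In MCM6 each of the TTTGGCGC matches overlapped a TTTCGCGC match on the other strand, so that 4 of the 29 matches stood at only a pair of places, and the MCM2 match overlapped its own reverse complement. The CCAAT box, searched on either strand, was present in 27 of the 45 members (60%) and in 39.7% of all genes with a window. A match describes the letters of the window and was not tested as a binding site.

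**Figure D1:**
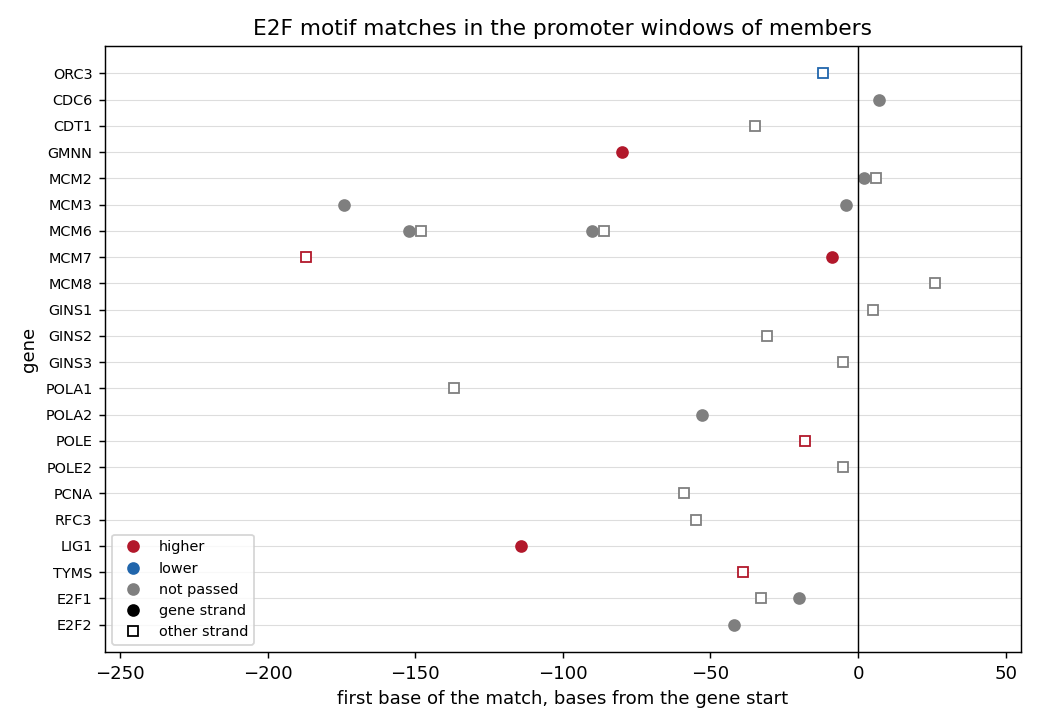
Position of each E2F-type match in the promoter windows of the 22 members that held one, as the distance in bases of its first base from the gene start, with filled circles for matches on the strand of the gene, open squares for the other strand, and colours for the result of the array test. Matches of members that rose, fell and did not pass lie over the same stretch, and 24 of 29 begin before the start.

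In total, 14 of the 52 members rose with UNC1999, 2 fell and 36 did not pass the test (limma, adjusted p below 0.05 over all 65529 rows). Over all 21957 genes, 9.14% rose and 7.31% fell, so that the members rose in a larger share (26.9%) than genes at large and fell in a smaller one (3.85%). All members were brighter than the median row of the array, and among the 15173 genes brighter than that row 12.4% rose and 10.3% fell. Among the 2527 genes whose mean level lay between the quartiles of the member levels, a window chosen after the values were seen, 16.2% rose and 18% fell. The changes were small. The median log2 difference of the 52 members was 0.12, against 0.01 for all genes, and the values ran from -0.36 in ORC3 to 0.65 in CCNE2. At an unadjusted p below 0.05, 24 members were higher (46.2%, against 19.9% of all genes) and 7 lower (13.5%, against 12.8%). Against all genes, the smaller share of falls by p-value was thus seen after adjustment and not before it. Among genes brighter than the median row, 25.6% were higher and 17.4% lower at an unadjusted p below 0.05. Against those genes the share of falls among members was smaller before adjustment too. All 3 UNC1999 arrays lay above all 3 UNC2400 arrays in 23 members, or 44.2%, against 24.1% of all genes, and below them in 4 members, or 7.69%, against 13.7%. Among the genes between the quartiles of the member levels these shares were 30.6% and 27.5%. With the cut-offs given in the study's methods (p no higher than 0.02 before adjustment, change of 1.5-fold or more), CCNE2 was the only member that was higher and 0 members were lower, against 0.906% and 1.47% of all genes. These shares describe the members and were not tested as a set.

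**Figure D2:**
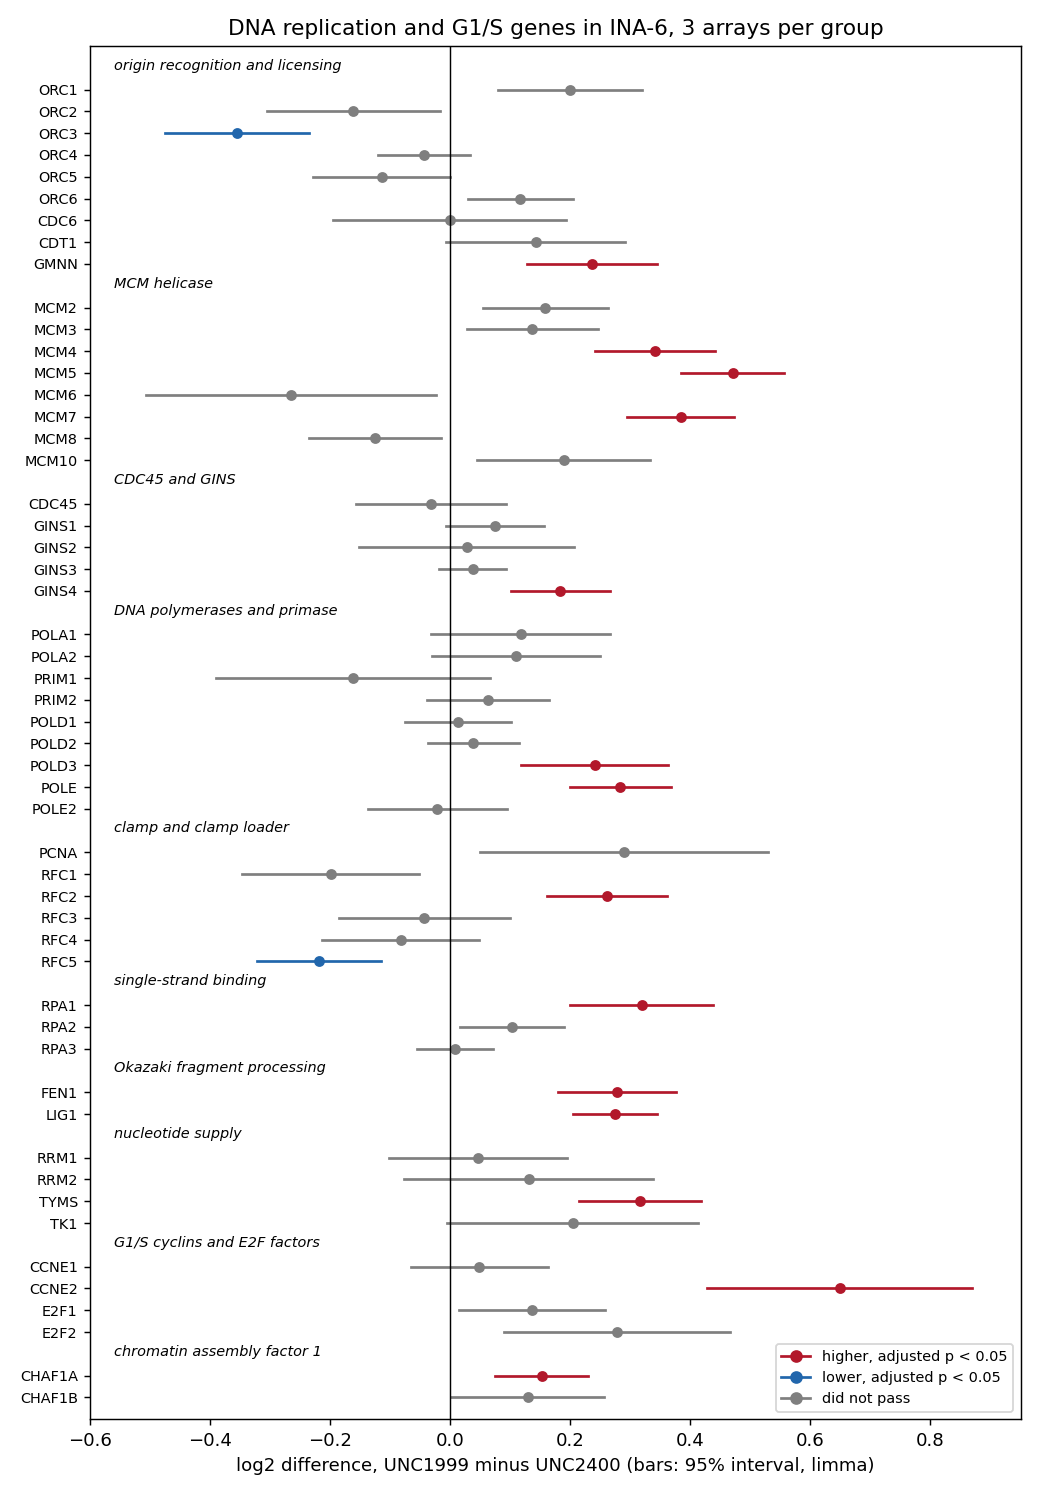
Log2 difference of each of the 52 genes, UNC1999 minus UNC2400, with its 95% interval from limma (3 arrays per group), grouped by role, with genes that rose in red, those that fell in blue and those that did not pass in grey. Most points lie to the right of 0 and within 0.4 of it, with CCNE2 farthest right at 0.65 and ORC3 farthest left at -0.36.

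Over all rows the arrays had medians of 4.83 to 4.86, and arrays of a group correlated at r between 0.9943 and 0.9977 across rows, against 0.9855 to 0.988 between groups. Within the UNC2400 group the arrays differed in a way that ran through the members. Replicate 1 was the highest of the 3 UNC2400 arrays in 44 of 52 members and replicate 3 the lowest in 38. The median distance of the members from the UNC2400 mean was 0.06 for replicate 1, 0.00 for replicate 2 and -0.07 for replicate 3. It was 0.13, 0.11 and 0.11 for the UNC1999 arrays, so that these medians lay less than 0.1 above that of UNC2400 replicate 1. They are medians over members and do not give the gap of a single member. The defining markers of plasma cells moved on the same arrays. All 9 were measured, 8 fell and CD38 rose, and the median level of the list was 6.65 to 6.81 on the UNC1999 arrays and 8.22 to 8.38 on the UNC2400 arrays. Of the markers of T and NK cells CD3E rose by 0.30, from a level of 5.07 (adjusted p = 0.0080), and the other 5 did not pass, with a list median of 5.09 to 5.12 against 4.91 to 5.01. No marker of monocytes (5 measured, median level 4.53 to 4.59 over the 6 arrays), erythroid cells (2, 5.28 to 5.38) or stromal cells (4, 4.78 to 4.84) passed the test. The part of these differences in the results on replication genes was not tested.

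**Figure D3:**
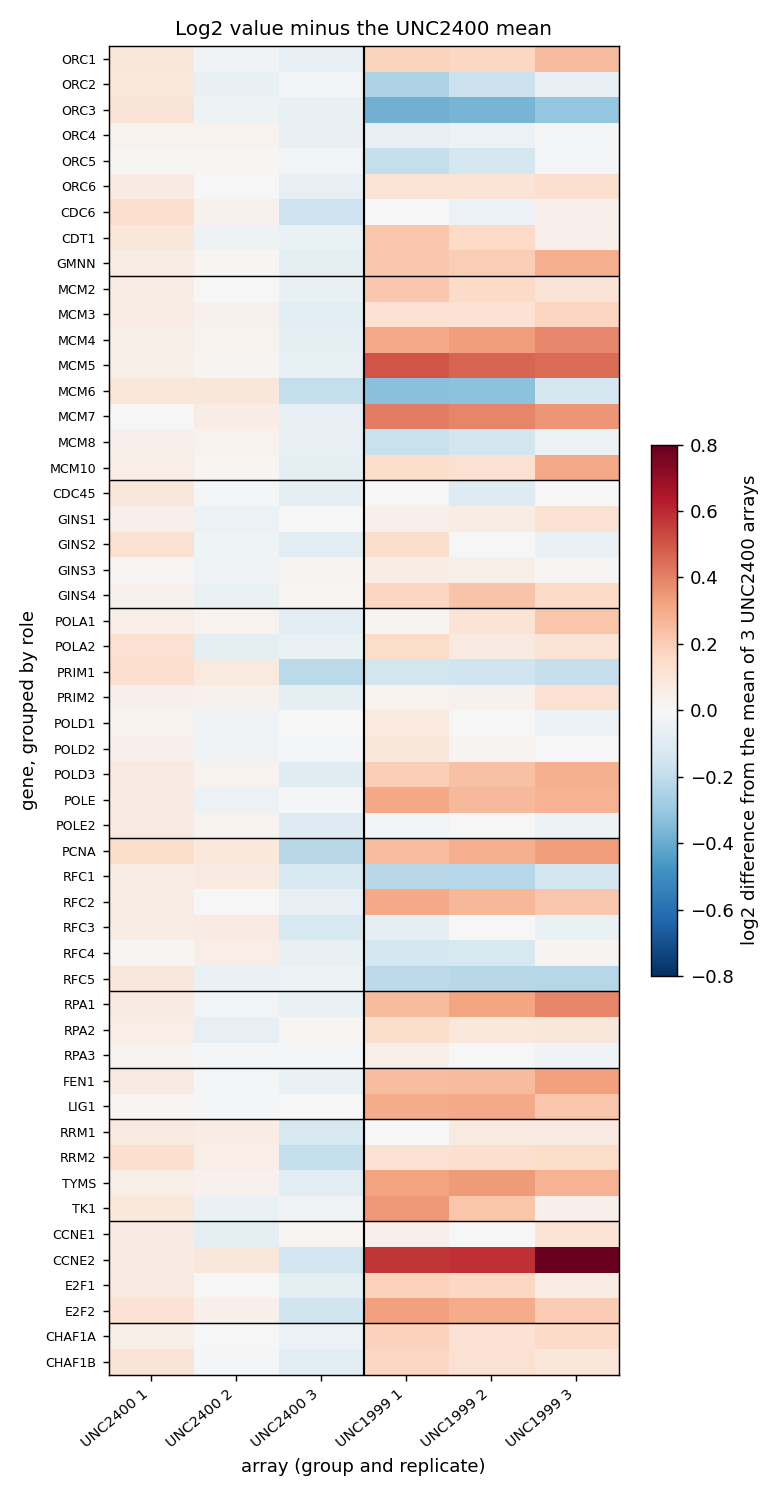
Log2 value of each gene (rows, grouped by role) on each array (columns), minus the mean of the 3 UNC2400 arrays, with red for higher and blue for lower. The UNC2400 replicate 1 column is mostly above 0 and the replicate 3 column mostly below. The 3 UNC1999 columns share red rows, among them those of MCM4, MCM5, MCM7, POLE, PCNA, RPA1, FEN1, LIG1, TYMS and CCNE2.

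Of the 9 genes of origin recognition and licensing GMNN rose, ORC3 fell and 7 did not pass, and their median difference was -0.00. That is 11.1% in each direction. Of all genes 9.14% rose and 7.31% fell, and of genes between the quartiles of the member levels 16.2% and 18%. Geminin (GMNN) binds CDT1 and keeps origins from being licensed again after S phase has begun. Its log2 values were 7.16, 7.15 and 7.24 on the UNC1999 arrays and 7.01, 6.96 and 6.87 on the UNC2400 arrays. Every UNC1999 array was higher than every control array, and the means of 7.18 ± 0.05 and 6.95 ± 0.07 (SD, n = 3 each) differed by 0.24 (95% interval 0.13 to 0.34, 1.18-fold, limma adjusted p = 0.0278). ORC3, a subunit of the origin recognition complex, read 6.20, 6.21 and 6.28 with UNC1999 and 6.68, 6.54 and 6.52 with UNC2400. The groups again did not overlap, here in the other direction, and the means of 6.23 ± 0.04 and 6.58 ± 0.09 differed by -0.36 (-0.48 to -0.24, 1.28-fold lower, adjusted p = 0.0107). The GMNN call was lost when any array other than UNC2400 replicate 1 was left out (adjusted p up to 0.0816), and that of ORC3 without UNC1999 replicate 2 (0.0541).

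The other origin recognition subunits, which did not pass, had values on both sides of 0. ORC1, the largest subunit, was higher on all 3 UNC1999 arrays (7.10, 7.09 and 7.18 against 7.02, 6.90 and 6.86), with a difference of 0.20 (0.08 to 0.32, adjusted p = 0.0637). ORC2 was lower on all 3 (6.11, 6.18 and 6.29 against 6.44, 6.30 and 6.34), with a difference of -0.16 (-0.31 to -0.02, adjusted p = 0.179). ORC6 differed by 0.12 (0.03 to 0.20, adjusted p = 0.117), again without overlap. ORC5 differed by -0.11 (-0.23 to -0.00, adjusted p = 0.225) and ORC4 by -0.04 (-0.12 to 0.03, adjusted p = 0.523). CDC6, the ATPase that brings the MCM ring to the origin, had the smallest difference of all members, -0.00 (-0.20 to 0.19, adjusted p = 0.997). CDT1, its partner in loading and the target of geminin, differed by 0.14 (-0.01 to 0.29, adjusted p = 0.251), with UNC1999 values of 7.50, 7.44 and 7.32 and UNC2400 values of 7.37, 7.23 and 7.22. These intervals are wide enough to hold changes of nearly 0.20 in either direction for CDC6 and of up to 0.29 upward for CDT1.

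The 8 MCM genes gave 3 of the 14 rises. That is 37.5%, against 9.14% of all genes and 16.2% of genes between the quartiles of the member levels. MCM2 to MCM7 encode the 6 subunits of the helicase ring, each present in the same number in a complete ring, but their RNAs did not change alike. MCM5 read 8.20, 8.16 and 8.14 with UNC1999 and 7.74, 7.72 and 7.63 with UNC2400. The gap between the groups was wider than the range of either, and the means of 8.17 ± 0.03 and 7.70 ± 0.06 differed by 0.47 (0.38 to 0.56, 1.39-fold, adjusted p = 0.00189), the smallest adjusted p of the 52 genes. MCM7 read 8.61, 8.59 and 8.56 against 8.21, 8.27 and 8.14. Its groups did not overlap either, and the difference was 0.38 (0.29 to 0.47, 1.3-fold, adjusted p = 0.00355). MCM4 read 7.91, 7.94 and 8.0 against 7.66, 7.64 and 7.54, with a difference of 0.34 (0.24 to 0.44, 1.27-fold, adjusted p = 0.00703). These 3 calls held when each of the 6 arrays was left out in turn, with a highest adjusted p of 0.0153 for MCM5, 0.0247 for MCM7 and 0.0381 for MCM4.

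The remaining subunits of the ring did not pass. MCM2 (7.65, 7.59 and 7.54 against 7.50, 7.43 and 7.37) and MCM3 (8.24, 8.23 and 8.29 against 8.18, 8.15 and 8.03) were higher on every UNC1999 array, by 0.16 (0.05 to 0.26, adjusted p = 0.0828) and 0.14 (0.03 to 0.25, adjusted p = 0.137). MCM6 had the opposite sign. It read 8.39, 8.39 and 8.58 with UNC1999 and 8.82, 8.81 and 8.53 with UNC2400, so that replicate 3 of either group lay apart from the other 2 and the groups overlapped. Its difference was -0.27 (-0.51 to -0.02, adjusted p = 0.186), and this interval lies wholly below those of MCM2, MCM3, MCM4, MCM5 and MCM7, though the differences between subunits were not tested. MCM8, which works in recombination rather than in the replicative ring, differed by -0.13 (-0.24 to -0.02, adjusted p = 0.172). MCM10, a firing factor outside the ring, was higher on every UNC1999 array (7.38, 7.37 and 7.55 against 7.30, 7.26 and 7.18), by 0.19 (0.04 to 0.33, adjusted p = 0.124).

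**Figure D4:**
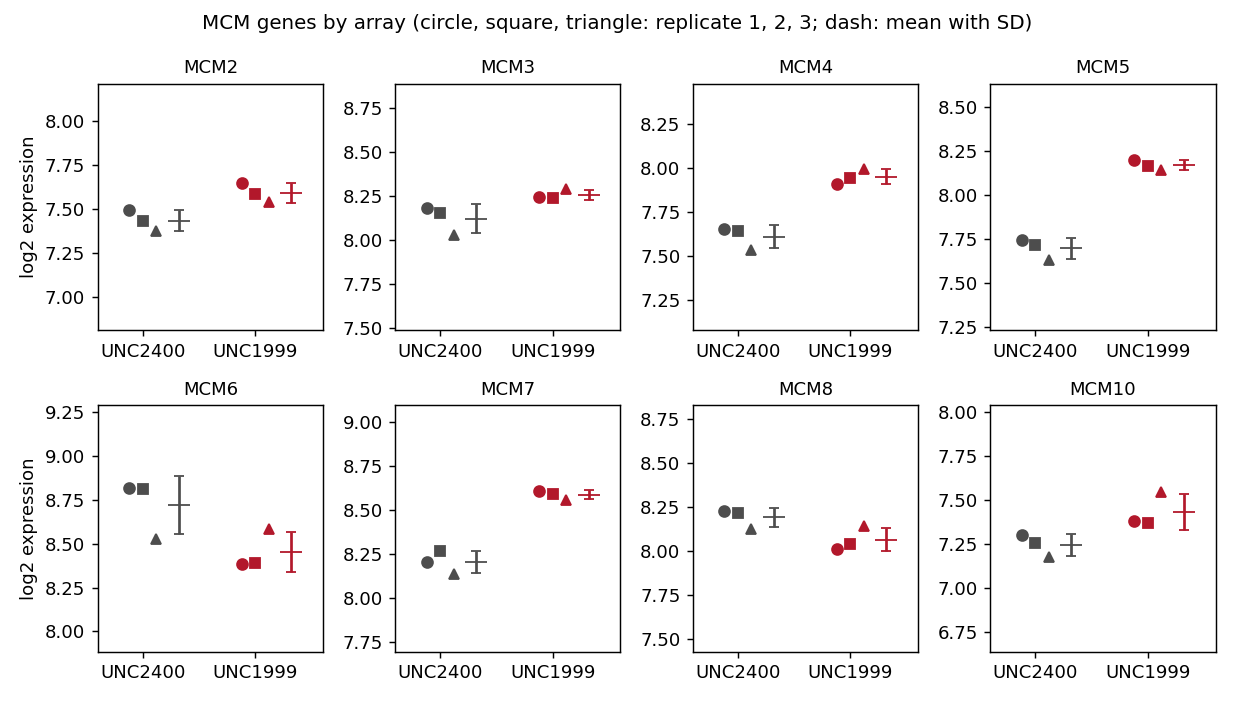
Log2 expression of the 8 MCM genes on each array, with UNC2400 in grey and UNC1999 in red, a circle, square and triangle for replicates 1, 2 and 3, and a dash with bars for the mean and SD (n = 3). All panels span the same range of log2 units, so the wide gaps in MCM4, MCM5 and MCM7 can be set against the overlap in MCM6.

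CDC45 and the 4 GINS subunits, which complete the helicase, gave 1 rise. That is 20% of the 5 genes, against 9.14% of all genes and 16.2% of genes between the quartiles of the member levels. GINS4 read 6.51, 6.57 and 6.49 with UNC1999 and 6.38, 6.29 and 6.36 with UNC2400. The groups were separate but close, and the means of 6.53 ± 0.04 and 6.34 ± 0.05 differed by 0.18 (0.10 to 0.27, 1.14-fold, adjusted p = 0.0261). That call was lost when any array other than UNC1999 replicate 3 was left out (adjusted p up to 0.0833). GINS1 was higher on every UNC1999 array but by only 0.07 (-0.01 to 0.16, adjusted p = 0.268). GINS2 differed by 0.03 (-0.15 to 0.21, adjusted p = 0.898), GINS3 by 0.04 (-0.02 to 0.09, adjusted p = 0.441) and CDC45 by -0.03 (-0.16 to 0.09, adjusted p = 0.805).

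Among the polymerases and primase, POLE and POLD3 rose and 7 of 9 genes did not pass. The share of 22.2% stands against 9.14% of all genes and 16.2% of genes between the quartiles of the member levels. All 3 UNC1999 arrays lay above all 3 UNC2400 arrays in 22.2% of these genes, against 24.1% of all genes. POLE, the catalytic subunit of the leading-strand polymerase epsilon, read 7.31, 7.26 and 7.28 with UNC1999 and 7.06, 6.95 and 6.99 with UNC2400. The difference of 0.28 (0.20 to 0.37, 1.22-fold, adjusted p = 0.00726) was larger than the range within either group, and it passed whichever array was left out (highest adjusted p 0.0334). POLD3, an accessory subunit of the lagging-strand polymerase delta, read 7.58, 7.62 and 7.67 against 7.45, 7.41 and 7.28. It differed by 0.24 (0.12 to 0.36, 1.18-fold, adjusted p = 0.0391), a call lost when any array other than UNC2400 replicate 3 was left out (adjusted p up to 0.126). Other subunits were less uniform. POLE2, the second subunit of polymerase epsilon, differed by -0.02 (-0.14 to 0.09, adjusted p = 0.87). POLD1, the catalytic subunit of polymerase delta, differed by 0.01 (-0.08 to 0.10, adjusted p = 0.903), and POLD2 by 0.04 (-0.04 to 0.11, adjusted p = 0.584). POLD4, the smallest subunit of polymerase delta and no member of the 52, named after its value was seen, rose by 0.31 (0.15 to 0.47, adjusted p = 0.0395). In the primase complex, which lays down the RNA-DNA primer, POLA1 differed by 0.12 (-0.03 to 0.27, adjusted p = 0.351), POLA2 by 0.11 (-0.03 to 0.25, adjusted p = 0.355) and PRIM2 by 0.06 (-0.04 to 0.16, adjusted p = 0.478). PRIM1, the primase subunit that makes the RNA, read 7.50, 7.48 and 7.46 against 7.78, 7.72 and 7.43. UNC2400 replicate 3 lay below all 3 UNC1999 arrays, the other 2 control arrays lay above them, and the difference was -0.16 (-0.39 to 0.07, adjusted p = 0.402).

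Of the 6 genes of the clamp and its loader RFC2 rose, RFC5 fell and 4 did not pass, or 16.7% in each direction. Of all genes 9.14% rose and 7.31% fell, and of genes between the quartiles of the member levels 16.2% and 18%. Replication factor C is a complex of 5 subunits, RFC1 to RFC5, that opens the PCNA ring and closes it around DNA. RFC2 read 7.42, 7.38 and 7.34 with UNC1999 and 7.18, 7.13 and 7.05 with UNC2400. It rose by 0.26 without overlap (0.16 to 0.36, 1.2-fold, adjusted p = 0.0155). RFC5 read 6.87, 6.86 and 6.85 against 7.17, 7.02 and 7.03. It fell by 0.22, likewise without overlap (-0.32 to -0.12, 1.16-fold lower, adjusted p = 0.0304). RFC1, the large subunit, was lower on every UNC1999 array (6.74, 6.74 and 6.82 against 7.02, 7.04 and 6.84) but did not pass, with a difference of -0.20 (-0.35 to -0.05, adjusted p = 0.113). RFC3 differed by -0.04 (-0.19 to 0.10, adjusted p = 0.765) and RFC4 by -0.08 (-0.21 to 0.05, adjusted p = 0.46). The RFC2 call was lost without UNC1999 replicate 1 or 2 (adjusted p up to 0.0687), and that of RFC5 without any 1 UNC1999 array or UNC2400 replicate 3 (up to 0.109).

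PCNA, the sliding clamp and a common marker of proliferating cells, did not pass. Its values were 8.55, 8.59 and 8.63 with UNC1999 and 8.44, 8.39 and 8.08 with UNC2400. All 3 UNC1999 arrays were higher, but UNC2400 replicate 3 stood well below the other 2 control arrays, the SD of that group was 0.20 against 0.04, and the difference of 0.29 had a wide interval (0.05 to 0.53, 1.22-fold, adjusted p = 0.151).

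RPA1, the large subunit of the protein that coats single-stranded DNA, read 7.79, 7.85 and 7.92 with UNC1999 and 7.61, 7.51 and 7.48 with UNC2400. It rose by 0.32 (0.20 to 0.44, 1.25-fold, adjusted p = 0.0144), a call lost without UNC1999 replicate 2 (adjusted p = 0.0629). The other subunits did not pass. RPA2 differed by 0.10 without overlap (0.02 to 0.19, adjusted p = 0.155) and RPA3 by 0.01 (-0.06 to 0.07, adjusted p = 0.924). RPA3 lay between 5.06 and 5.14 on all 6 arrays, near the array median.

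Both genes that finish Okazaki fragments rose, where 9.14% of all genes did. FEN1, the nuclease that trims the displaced 5′ flap, read 7.56, 7.57 and 7.65 with UNC1999 and 7.38, 7.30 and 7.26 with UNC2400. LIG1, the ligase that seals the remaining nick, read 6.86, 6.87 and 6.78 against 6.58, 6.55 and 6.56. Neither gene overlapped between groups, and their differences were alike, 0.28 for FEN1 (0.18 to 0.38, 1.21-fold, adjusted p = 0.0124) and 0.27 for LIG1 (0.20 to 0.34, 1.21-fold, adjusted p = 0.00464). LIG1 passed whichever array was left out (highest adjusted p 0.0263), whereas FEN1 narrowly missed without UNC1999 replicate 2 (0.0502).

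Of the 4 genes of nucleotide supply TYMS rose. That is 25%, against 9.14% of all genes and 16.2% of genes between the quartiles of the member levels. Thymidylate synthase makes dTMP, and TYMS read 8.71, 8.73 and 8.66 with UNC1999 and 8.44, 8.42 and 8.30 with UNC2400. The groups did not overlap, and the difference of 0.32 (0.21 to 0.42, 1.24-fold, adjusted p = 0.00928) passed whichever array was left out (highest adjusted p 0.0477). TK1, the salvage enzyme for thymidine, read 7.80, 7.67 and 7.49 against 7.53, 7.39 and 7.42. The UNC1999 arrays spread over more than the difference between the means, 0.20 (-0.01 to 0.41, adjusted p = 0.237). The ribonucleotide reductase subunits did not pass. RRM1 differed by 0.05 (-0.10 to 0.19, adjusted p = 0.762). RRM2, the subunit limiting for the enzyme in S phase, read 9.02, 9.04 and 9.05 against 9.04, 8.96 and 8.72, with a difference of 0.13 (-0.08 to 0.34, adjusted p = 0.469).

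CCNE2 had the largest change of the 52 genes. Cyclin E2, like cyclin E1, activates CDK2 at the G1/S boundary. CCNE2 read 6.42, 6.44 and 6.64 with UNC1999 and 5.92, 5.94 and 5.70 with UNC2400. No array of one group came near the other, and the means of 6.50 ± 0.12 and 5.85 ± 0.14 differed by 0.65 (0.43 to 0.87, 1.57-fold, adjusted p = 0.0109). The adjusted p stayed below the threshold with each array left out (up to 0.0440). The CCNE2 call was lost when the replicate number was fitted as a block. The fold fell short of 1.5 without UNC2400 replicate 3 (log2 difference 0.57) or without UNC1999 replicate 3 (0.58). CCNE1 read 6.90, 6.86 and 6.97 against 6.93, 6.79 and 6.88, groups that overlapped, with a difference of 0.05 (-0.07 to 0.16, adjusted p = 0.655).

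Within each array, the log2 value of CCNE1 minus that of CCNE2 was 0.48, 0.42 and 0.33 with UNC1999 and 1.01, 0.84 and 1.18 with UNC2400. The groups were separate, with a change of -0.60 and an exact two-sided permutation p of 0.1, which is the smallest that 3 against 3 allows (0.2 after adjustment over the 4 pairs compared). The corresponding change was -0.14 for E2F1 minus E2F2 (exact permutation p = 0.1, adjusted 0.2), -0.08 for RRM1 minus RRM2 (0.2, adjusted 0.267) and 0.02 for CHAF1A minus CHAF1B (0.6, adjusted 0.6), so that no pair could pass a threshold of 0.05 in this design.

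The E2F factors themselves, activators of this program, did not pass. E2F2 was higher on every UNC1999 array (7.34, 7.31 and 7.21 against 7.13, 7.05 and 6.85), by 0.28 (0.09 to 0.47, adjusted p = 0.0905). E2F1 read 6.83, 6.81 and 6.70 against 6.71, 6.64 and 6.57, with a difference of 0.14 (0.01 to 0.26, adjusted p = 0.178). Of chromatin assembly factor 1, which places new histones behind the fork, CHAF1A (7.31, 7.24 and 7.28 against 7.17, 7.12 and 7.08) rose by 0.15 (0.07 to 0.23, 1.11-fold, adjusted p = 0.0386), the smallest change among the 16 members called. Its call was lost when any array other than UNC2400 replicate 1 was left out (adjusted p up to 0.12). CHAF1B (7.50, 7.46 and 7.43 against 7.44, 7.33 and 7.25) differed by 0.13 (0.00 to 0.26, adjusted p = 0.221).

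**Figure D5:**
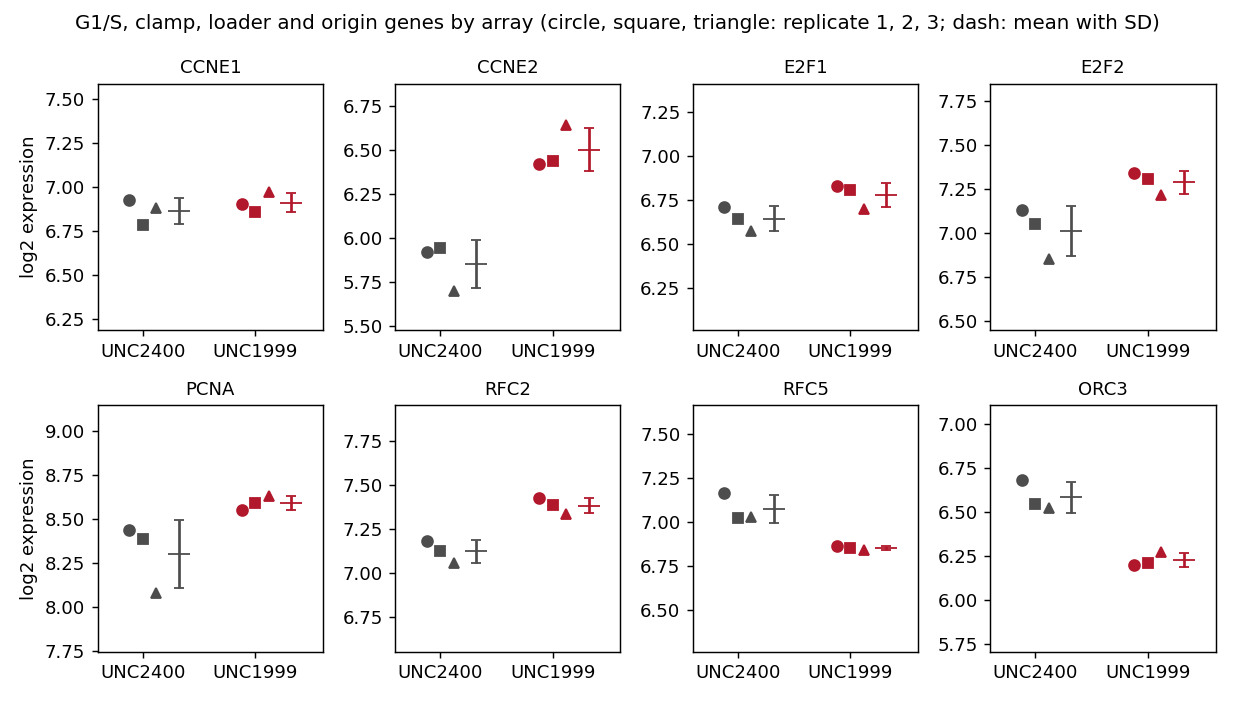
Log2 expression on each array of the cyclin E and E2F genes (upper row) and of PCNA, RFC2, RFC5 and ORC3 (lower row), with UNC2400 in grey and UNC1999 in red, a circle, square and triangle for replicates 1, 2 and 3, and a dash with bars for the mean and SD (n = 3). CCNE2 is separated by 0.65 where CCNE1 overlaps, RFC2 and RFC5 are separated in opposite directions, and the low UNC2400 replicate 3 widens the control bar of PCNA.

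Of the 16 members called, 7 passed with each of the 6 arrays left out in turn. These were MCM4, MCM5, MCM7, POLE, LIG1, TYMS and CCNE2, and all of them rose. Leaving out UNC1999 replicate 2 cost the most calls and left these 7 alone. In that fit 4.29% of all genes rose and 3.87% fell, against 9.14% and 7.31% with all arrays. Of the member calls, 4 (GMNN, GINS4, POLD3 and CHAF1A) passed in only 1 of the 6 fits with an array left out. Another 5 members passed in 1 of these fits but not with all arrays. PRIM1 (-0.27, adjusted p = 0.0132) and RFC1 (-0.26, adjusted p = 0.0197) were lower without UNC2400 replicate 3, and ORC5 (-0.16, adjusted p = 0.0230) was lower without UNC1999 replicate 3. ORC1 (0.25, adjusted p = 0.0322) and POLA2 (0.17, adjusted p = 0.0443) were higher without UNC2400 replicate 1. ORC1 (adjusted p = 0.0280), MCM2 (0.0498) and RPA2 (0.0240) also passed after quantile normalization, and ORC1 (0.0373) and E2F2 (0.0387) when dim rows were left out of the fit.

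Other genes of the pathway were followed through 6 lists with 85 measured genes, of which 21 rose, 3 fell and 61 did not pass, with a median difference of 0.08. The shares of 24.7% higher and 3.53% lower stand against 9.14% and 7.31% of all genes. The count of rises depended on single arrays, with 8 left without UNC2400 replicate 3 and 9 without UNC1999 replicate 2. It was 12 without UNC2400 replicate 1 or 2 and 13 without UNC1999 replicate 1. The share of all genes that rose was also lower in these fits, at 6.03%, 4.29%, 5.51%, 6.31% and 5.16% in that order. The count of falls was 1 without UNC2400 replicate 1 or without UNC1999 replicate 1 or 2. In those fits 4.73%, 4.61% and 3.87% of all genes fell. Among factors of the fork and accessory polymerase subunits 8 of 17 rose (47.1%) and 0 fell, with a median of 0.22. At an unadjusted p below 0.05, 10 were higher (58.8%, against 19.9% of all genes) and 2 lower (11.8%, against 12.8%). POLE3 and POLE4, the small histone-fold subunits of polymerase epsilon, rose by 0.25 (adjusted p = 0.0107) and 0.23 (adjusted p = 0.0104), beside the rise of POLE and the value near 0 of POLE2. TIMELESS, of the fork protection complex, rose by 0.27 (adjusted p = 0.0158). CLSPN, an adaptor of the ATR checkpoint kinase that travels with the fork, rose by 0.52 (adjusted p = 0.0201) and is named after its value was seen, as the largest change of that list.

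Among other chromatin factors of replication 5 of 10 rose (50%, against 9.14% of all genes) and 0 fell, with a median of 0.22. At an unadjusted p below 0.05, 7 were higher (70%, against 19.9% of all genes) and 0 lower. UHRF1, which recruits DNMT1 to hemimethylated DNA after the fork has passed, read 7.39, 7.36 and 7.35 with UNC1999 and 6.64, 6.63 and 6.64 with UNC2400. The replicates of either group lay within 0.04 of each other, and the difference was 0.73 (0.69 to 0.77, 1.66-fold, adjusted p = 0.000453). ASF1B, a histone chaperone, rose by 0.40 (adjusted p = 0.0100), and SLBP, which binds the stem-loop of histone mRNA in S phase, by 0.22 (adjusted p = 0.0116).

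The shares that rose were smaller in the other lists. They were 8.33% for origin firing, 7.69% for nucleotide synthesis, 20.8% for G1/S regulators and 11.1% for the checkpoint. The shares that fell were 8.33% for G1/S regulators and 11.1% for the checkpoint. Of all genes 9.14% rose and 7.31% fell, and of genes between the quartiles of the member levels 16.2% and 18%. That window was set by the levels of the members and not by those of these lists. Of 12 genes of origin firing only CDK2, the kinase partner of cyclin E, rose (0.25, adjusted p = 0.0055), and CDC7 and DBF4, the kinase that triggers firing and its activator, did not pass (adjusted p = 0.133 and 0.826). Of 13 genes of nucleotide synthesis and turnover only SAMHD1, which degrades dNTPs, rose (0.39, adjusted p = 0.0476). Of 24 further G1/S regulators 5 rose and 2 fell. E2F5, counted among the repressor E2Fs, fell by 0.40 (5.99, 5.97 and 6.04 against 6.42, 6.46 and 6.33, adjusted p = 0.0037). CCND3, cyclin D3, rose by 0.19 (adjusted p = 0.0063). TFDP1, the usual dimer partner of E2F factors, rose by 0.19 (adjusted p = 0.0150), whereas TFDP2 fell by 0.18 (adjusted p = 0.0440). TFDP2 is named after its value was seen. Of 9 checkpoint genes WEE1, the kinase that holds CDK1 inactive, rose by 0.38 (adjusted p = 0.0148), and RAD17, which with the small RFC subunits loads the checkpoint clamp, fell by 0.54 (-0.76 to -0.33, adjusted p = 0.0180).

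Genes of mitosis were set beside those of replication, since both are periodic in dividing cells. Of 19 mitotic genes measured 14 rose (73.7%, against 9.14% of all genes) and 0 fell. At an unadjusted p below 0.05, 18 were higher (94.7%, against 19.9% of all genes) and 0 lower. Their median difference was 0.35, against 0.12 for the replication genes. All 3 UNC1999 arrays lay above all 3 UNC2400 arrays in 18 of the 19, against 24.1% of all genes. The list median was 8.35 to 8.39 on the UNC1999 arrays and 7.90 to 7.97 on the UNC2400 arrays. CDCA8, of the chromosomal passenger complex, rose by 0.58 (adjusted p = 0.0013), TACC3, a spindle protein, by 0.50 (adjusted p = 0.0022), and CENPF, a kinetochore protein, by 0.83 (adjusted p = 0.0022). Of 15 mitotic genes with a promoter window 2 held an E2F-type match (13.3%) and 12 a CCAAT box (80%). The difference between the mitotic and the replication genes was not tested.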

How the data were processed

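RNA of 6 INA-6 cultures was hybridised to Affymetrix arrays, 3 per group. The authors processed the arrays in GeneSpring and deposited log2 expression values. How they summarised, background-corrected and normalized them, the genome build and the handling of strand are steps not given in the sources used here. There were 65529 rows and 0 columns of other samples. The probe annotation gave 23129 rows 1 symbol, 1221 several and 41179 none. Older symbols (2504) were updated through RefSeq synonyms, and the row with the highest mean stood for a gene.

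Differences were fitted with limma 3.58.1 in R 4.3.3 (lmFit, eBayes) on all rows, with group as the only term, two-sided, Benjamini-Hochberg adjustment over all rows and a threshold of 0.05. Levels were not compared between genes. The precision is limited by the number of arrays, which give no read depth.

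The members and lists were chosen with earlier results of these data known. All 52 members were named, and of each other list up to 3 called genes with the smallest p. Only pathway genes with a row of their own (85) were counted. Alternatives were the replicate number as a block, quantile, cyclic loess and median scaling, a filter on dim rows, an intensity trend, a robust prior, the mean over rows and leaving out each array. RefSeq proteins were not used here.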

Additional observations from a re-analysis of the deposited data

How the results depend on the processing

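The labels do not say whether arrays with the same replicate number were paired. Same-numbered arrays deviated together with r of 0.06, 0.08 and -0.01 over all rows. Not every array correlated best with its own number. With 3 arrays per group these values cannot decide whether the arrays were paired. With the replicate number as a block, 9 members were higher and 1 lower, against 14 and 2, and 13 other pathway genes were higher and 1 lower, against 21 and 3. Of all genes 6.02% were higher and 5.26% lower under the block, against 9.14% and 7.31%. Of the 16 member calls 8 remained under the block. CCNE2, CHAF1A, FEN1, GINS4, GMNN, POLD3, RFC5 and RPA1 were lost and E2F2 and MCM2 gained. The cause was not tested. With each array left out in turn, the members called ranged from 7 to 14 higher and from 0 to 3 lower, the other pathway genes from 8 to 19 higher and from 1 to 3 lower, and the members past the thresholds of the study from 0 to 1. The shares of all genes ranged from 4.29% to 9.68% higher and from 3.87% to 7.62% lower in the same fits. Cyclic loess gave 5 other pathway genes lower. Quantile normalization gave 31 of them higher, and 10% of all genes. All 16 member calls remained under quantile normalization, cyclic loess, the filter on dim rows, the robust prior and the mean over rows, and 14 under median centring (without CHAF1A and POLD3) and the intensity trend (without CHAF1A and GINS4). No called member changed sign under any alternative. Signs changed only among members near 0, in CDC6 (0.019 with quantile normalization, -0.085 to 0.067 with an array left out), POLD1 (-0.0084 with cyclic loess, -0.020 to 0.042), RPA3 (-0.0013 with quantile normalization, -0.0058 with cyclic loess, -0.013 to 0.027), CDC45 (-0.069 to 0.011), GINS2 (-0.028 to 0.087), POLE2 (-0.072 to 0.015) and RRM1 (-0.020 to 0.080). Over all genes 9.14% rose and 7.31% fell, and cyclic loess turned this balance to 8.45% and 8.66%. The table gives no signal over background, so whether folds of dim genes such as RPA3 are compressed was not measured.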

Other observations

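Of the 52 genes 11 overlap a protein-coding or microRNA gene that had a row, and their neighbours did not all move with them. The MCM7 gene hosts the MIR106B, MIR93 and MIR25 cluster. MIR25 rose by 0.34 (0.23 to 0.45, limma adjusted p = 0.00925), while MIR93 differed by 0.06 (adjusted p = 0.467) and MIR106B by 0.04 (adjusted p = 0.884), and AP4M1, which overlaps MCM7, rose by 0.15 (adjusted p = 0.00856). These rows lie within 1 host gene, and the levels of the mature microRNAs were not analysed here. ENOSF1, antisense to TYMS, fell by 0.27 (-0.40 to -0.13, adjusted p = 0.0357), where TYMS rose. At CCNE2, INTS8 differed by -0.23 (adjusted p = 0.183) and NDUFAF6 fell by 0.11 (adjusted p = 0.0498). UBXN6 rose by 0.19 beside CHAF1A (adjusted p = 0.0362). These neighbours were chosen after their values were seen. The strand handling of the array is not given in the sources used here, so signal of overlapping genes may not be fully apart, and this was not tested. Pseudogenes named after the member are listed for 10 of the 52, among them the called members RFC5, FEN1 and TYMS, and their share of the signal was not tested.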
